A study of Mus musculus with 12 samples.

Results

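The comparison asked how visceral white adipose tissue differed between mice given a high-fat diet and mice given a control diet, with genotype held as a second term so that both genotypes contribute to a single diet effect. All 12 of the 12 libraries entered it, 6 from the high-fat diet and 6 from the control diet, and all genes were taken. The mice were of the FVB/N strain, and the controls were littermates. Wild-type mice (wt) carried αMHC tTA alone, a transcription activator driven by the cardiac αMHC promoter. Transgenic mice (tgf) carried αMHC tTA together with αMHC TGFb, a TGF-b1 transgene that this driver switches on in the heart. Every mouse, controls included, therefore carried the driver. Feeding began at 8 to 10 weeks of age and lasted 2 or 6 weeks, and the labels do not say which duration a library had. The high-fat diet drew 60% of its energy from fat (5.21 kcal per g), and the control chow drew 17% (3.1 kcal per g). The 2 diets came from different makers and so differ in more than fat. Each genotype and diet had 3 libraries, written here as wt_ctl_1 to tgf_hfd_3 after genotype, diet (ctl or hfd) and replicate number. The labels do not state that the replicates came from separate mice, and the p-values then reflect the spread from library to library. The total counts assigned to genes were between 20101240 and 21337312 per library.

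White adipose tissue stores energy as triglyceride in adipocytes, which either take up fatty acids from lipoproteins or make them from glucose (lipogenesis), and release them again by lipolysis. Around the adipocytes lie macrophages and other immune cells, endothelium, fibroblast-like progenitors and, on visceral depots, a mesothelial sheet. When the depot grows, adipocytes enlarge, the collagen matrix is rebuilt and monocyte-derived macrophages gather around adipocytes, drawn by chemokines such as CCL2.

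Several libraries stood apart in genes of other tissues, and these come first because they touch the results that follow. The 20 adipocyte identity genes had a mean level of 9.74 to 10.1 log2 CPM (CPM, the count scaled to a common library total) in all 12 libraries. Epithelial genes were high in 2 control libraries, wt_ctl_1 and tgf_ctl_2: the keratin Krt5 reached 5.28 and 142 CPM there and at most 0.648 CPM in the other 10 libraries. Muscle genes were high in tgf_ctl_3 and wt_hfd_3 (list mean 5.53 and 4.76 log2 CPM, against a median of -0.47 over the control and -0.61 over the high-fat libraries). Liver genes were high in wt_hfd_2 (4.48 log2 CPM, against a median of 1.70 over the high-fat libraries). Red cell genes were lower on the high-fat diet, where the list mean ran from 1.83 to 2.83 log2 CPM against 2.76 to 3.83 on the control diet. In bulk tissue fewer cells of a type and less RNA per cell cannot be told apart, and the part of these other tissues in any gene's change was not tested. For many of the lists, counts of called genes are also given without the 2 epithelium-rich libraries (the epithelium-rich pair) and without those 5 libraries together, which leaves 3 control and 4 high-fat libraries.

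**Figure D1:**
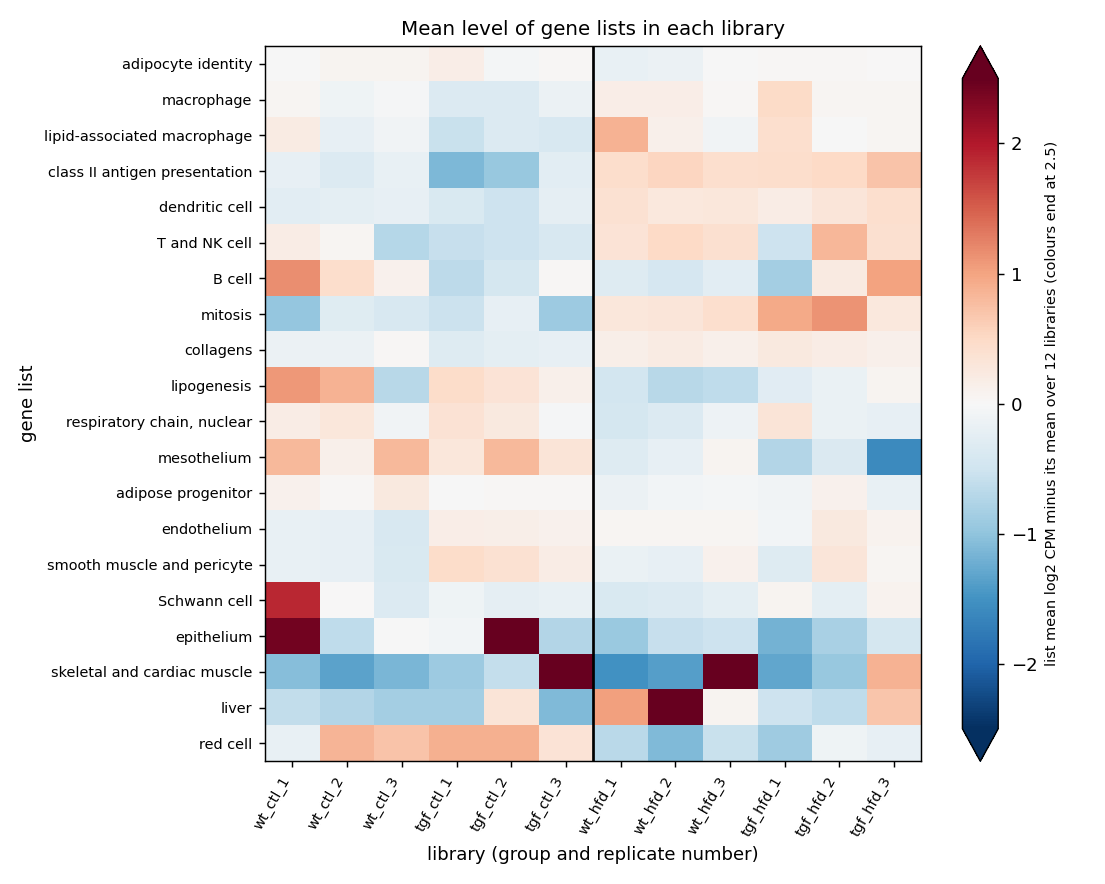
Mean log2 CPM of 20 gene lists (rows) in the 12 libraries (columns, control diet left of the black line), each as the difference from the list's mean over the 12 libraries. Class II, mitosis and dendritic cell genes are higher on the right, mesothelium and red cell genes are lower there, and the dark red cells are the epithelium-, muscle- and liver-rich libraries.

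Many genes differed between the diets, most of them by small amounts. Of 16550 genes that passed the filter on low counts, out of 50559 in the files, 2884 (17.4%) were called at an adjusted p below 0.05 in edgeR's quasi-likelihood test of the diet term. Of these, 1552 (9.38% of the genes tested) rose and 1332 (8.05%) fell. The median size of the change was 0.56 on the log2 scale among called genes. At least 2-fold rises numbered 379 and at least 2-fold falls 284, whereas 1509 called genes moved by less than 1.5-fold. The 6 high-fat libraries did not overlap the 6 control libraries for 658 genes that were higher (3.98%) and 462 that were lower (2.79%). The first principal component carried 28.0% of the variance and separated the diets, and the second carried 13.5% and did not. Without the 2 epithelium-rich libraries 1869 genes were called, 1053 of them raised and 816 lowered, and without all 5 libraries rich in other tissues 550 were called, 369 raised and 181 lowered. Leaving out 1 library at a time called 1978 to 2812 genes, with the lowered count moving by more than 1.5-fold to 851 without tgf_ctl_1 and 876 without tgf_hfd_3. None of the 2884 genes changed direction in any of these fits in which it was measured. Counts of called list members from all 12 libraries stand below beside 9.38% raised and 8.05% lowered over all genes tested, and several lie near these shares. Counts without the epithelium-rich pair stand beside 1053 raised and 816 lowered of 16873 genes tested. Those without the 5 libraries stand beside 369 raised and 181 lowered of 17377. Counts of members whose libraries do not overlap stand beside 3.98% higher and 2.79% lower. Where single left-out libraries are named beside a list count, the count moved by more than 1.5-fold or away from 0, and smaller moves are not listed. Below, a change written as a value ± SE is a log2 fold change, and gene positions are RefSeq spans on GRCm38.p6.

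**Figure D2:**
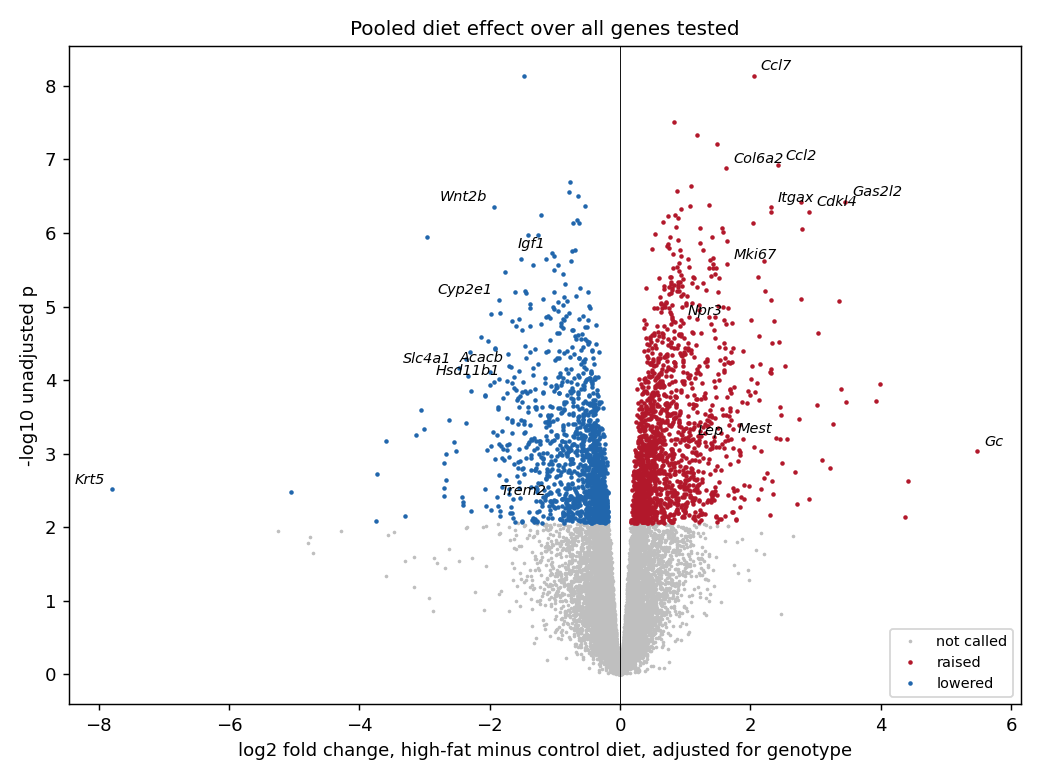
Each point is 1 of the 16550 genes tested: x, log2 fold change of high-fat over control diet adjusted for genotype; y, -log10 of the unadjusted p. Raised genes (red, 1552) and lowered genes (blue, 1332) have an adjusted p below 0.05; Krt5, at the far left, is high in the epithelium-rich control libraries and low in all others.

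**Figure D3:**
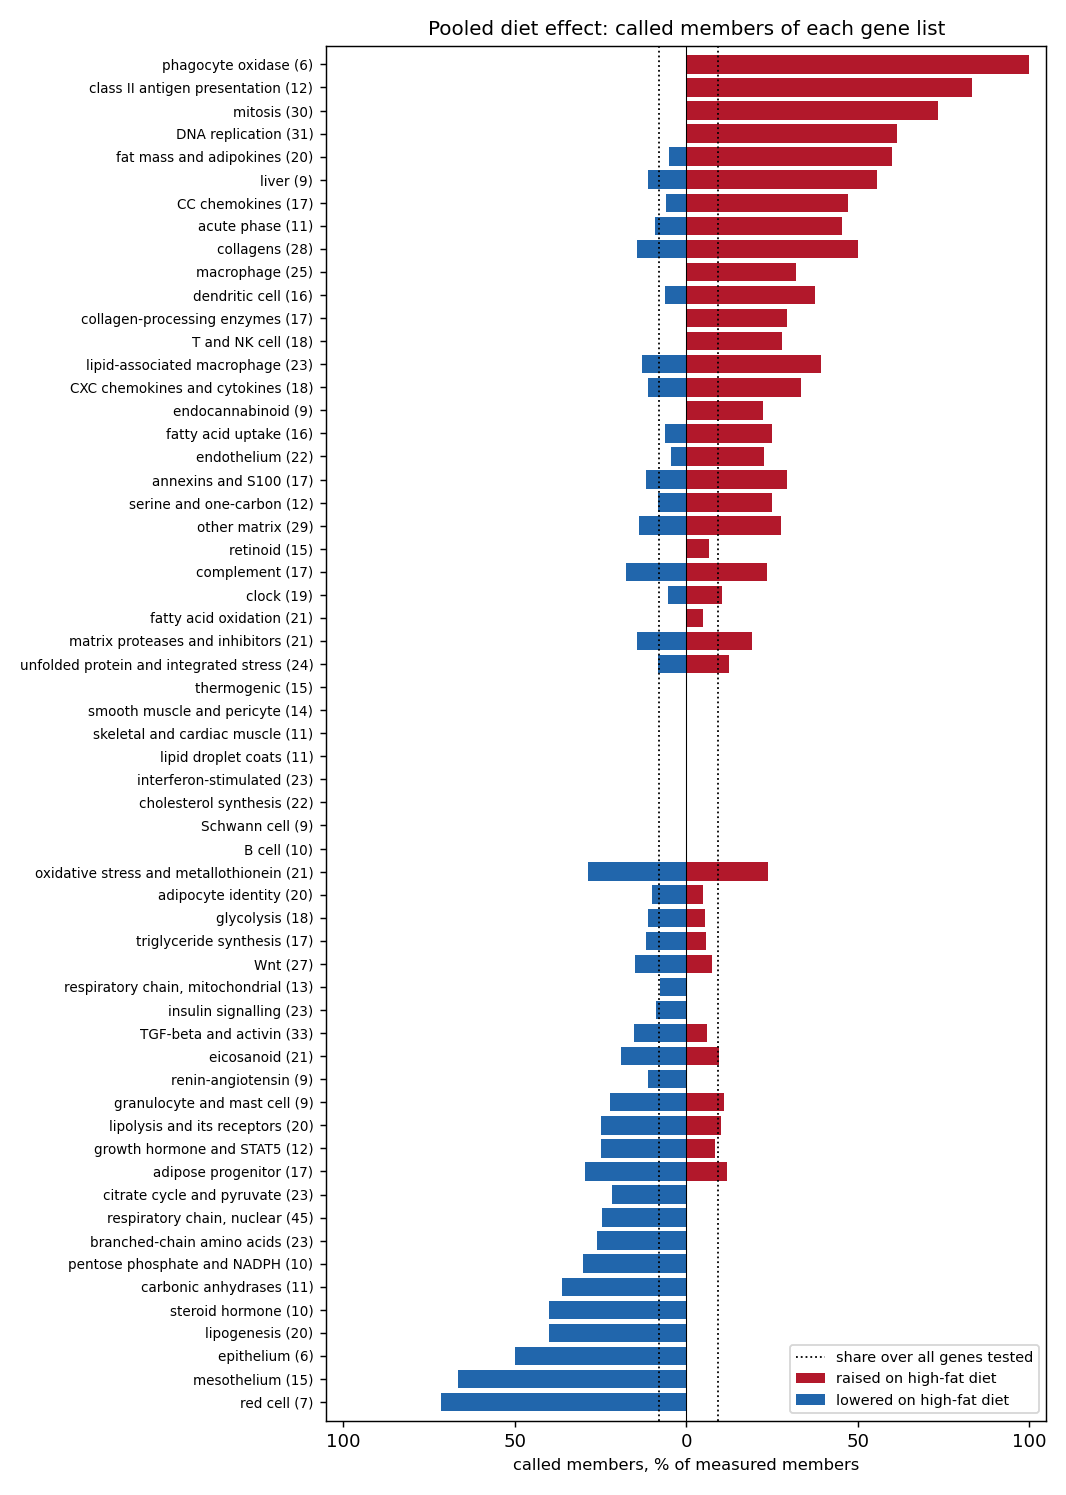
For each gene list with 5 or more measured members (number in brackets), the bar to the right is the percentage of members raised and the bar to the left the percentage lowered on the high-fat diet. Dotted lines mark the shares over all genes tested, 9.38% raised and 8.05% lowered; phagocyte oxidase, class II and mitosis lists lie at the top and red cell, mesothelium and epithelium lists at the bottom.

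Chemokines that recruit monocytes were among the clearest rises. CC chemokines signal through receptors such as CCR2 on monocytes, and 8 of 17 measured genes of this group rose while 1 fell, with a median log2 fold change of 0.89 against -0.02 over all genes tested. Ccl7 (chromosome 11, 82045712 to 82047525), a CCR2 ligand, ranged from 1.45 to 4.21 CPM (median 2.21) in the control libraries and from 7.53 to 13.3 CPM (median 10.2) in the high-fat libraries. It was 4.14-fold higher on the high-fat diet (log2 fold change 2.05 ± 0.16 SE, adjusted p = 6.08e-05). Ccl2 (chromosome 11, 82035577 to 82037452), the main monocyte attractant, ranged from 1.10 to 5.24 CPM (median 3.01) in the control libraries and from 11.6 to 21.4 CPM (median 16.3) in the high-fat libraries, and was 5.39-fold higher (log2 fold change 2.43 ± 0.24 SE, adjusted p = 0.000314). For both genes the lowest high-fat library lay above the highest control library. Ccl8 rose by 1.60 ± 0.24 on the log2 scale. The monocyte receptor Ccr2 rose 2.69-fold, from 9.54 to 20.5 CPM in control and to 25.1 to 47.6 CPM in high-fat libraries, again with no overlap. Ccl24, an eosinophil attractant, was the CC chemokine that fell (log2 fold change -0.95 ± 0.19 SE, adjusted p = 0.00578). The 8 rises and 1 fall were the same in number without the 2 epithelium-rich libraries, and 4 and 1 without all 5.

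Of 18 measured CXC chemokines and cytokines, 6 rose and 2 fell. Cxcl1, a neutrophil attractant, rose 4.64-fold at low counts, from 0.305 to 0.859 CPM (median 0.408) in the control libraries and from 1.87 to 3.45 CPM (median 2.52) in the high-fat libraries. The interferon-inducible T cell attractants Cxcl10 and Cxcl9 rose by 1.37 ± 0.20 and 1.05 ± 0.22 on the log2 scale. Those that fell were Il33 (log2 fold change -0.86 ± 0.19 SE, adjusted p = 0.00952), an alarmin made by stromal and mesothelial cells, and Il18 (-0.65 ± 0.13). The count of rises was at most 5 in any fit that left out 1 library. It was 3 without tgf_ctl_1, wt_hfd_1 or tgf_hfd_3, and 4 without the epithelium-rich pair and 2 without the 5 libraries. None of 23 measured interferon-stimulated genes was called, and their median was 0.13. The number called lower was 1 without wt_ctl_2 or wt_hfd_2.

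Acute phase genes, which adipose tissue makes under inflammatory signals, had 5 of 11 measured members raised and 1 lowered. Saa3, serum amyloid A of extrahepatic tissues, ranged from 2.21 to 15.2 CPM (median 4.52) in the control libraries and from 12.1 to 63.8 CPM (median 40.4) in the high-fat libraries, and rose 6.85-fold (log2 fold change 2.78 ± 0.39 SE, adjusted p = 0.00101). The 2 diets overlapped for Saa3 because the highest control library exceeded the lowest high-fat library. Haptoglobin (Hp) rose by 1.31 ± 0.30, Serpina3n by 0.81 ± 0.20 and the pentraxin Ptx3 by 0.93 ± 0.21. Cp, the ferroxidase ceruloplasmin, went the other way, from 176 to 60.8 CPM in the median (log2 fold change -1.45 ± 0.20 SE, adjusted p = 0.000891), with no overlap between the diets. Without the 5 libraries none of the 5 rises was called and the list median was 0.76 against 0.81 with all 12.

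Genes of antigen presentation on MHC class II rose almost as a block: 10 of 12 measured members were called higher and none lower, with a median of 1.07. Cd74, the invariant chain that escorts class II molecules to the endosome, ranged from 111 to 259.8 CPM (median 196) in the control libraries and from 401 to 614 CPM (median 469.7) in the high-fat libraries. The rise was 2.64-fold (log2 fold change 1.40 ± 0.18 SE, adjusted p = 0.000768) and the diets did not overlap. Ciita, the transactivator that switches class II genes on, rose 2.98-fold (log2 fold change 1.58 ± 0.18 SE, adjusted p = 0.000441). The chain gene H2-Ab1 rose by 1.16 ± 0.19, the peptide-loading gene H2-DMa by 1.10 ± 0.16 and the endosomal reductase Ifi30 by 0.67 ± 0.10. In 8 of the 12 the high-fat libraries lay wholly above the control libraries, against 3.98% of all genes tested. Leaving out 1 library at a time gave 9 to 11 rises, and leaving out the 5 libraries gave 6 with a median of 1.18. H2 genes belong to a family of close paralogs, and how the counting treated reads that fit more than 1 of them is not given, so their levels are less certain.

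All 6 measured subunits of the phagocyte NADPH oxidase, the enzyme that makes superoxide in phagocytes, rose. Cybb, its catalytic subunit, rose by 0.65 ± 0.12, and the cytosolic subunit Ncf4 by 0.93 ± 0.15. The list median was 0.69. Without the 5 libraries 3 of the 6 were called and the median was 0.89.

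Among macrophage markers 8 of 25 measured genes rose and none fell. Mpeg1, a pore-forming protein of macrophages, ranged from 24.4 to 43.7 CPM (median 31.2) in the control libraries and from 52.0 to 134 CPM (median 79.2) in the high-fat libraries, and rose 2.60-fold (log2 fold change 1.38 ± 0.17 SE, adjusted p = 0.000615) without overlap. Cd68 rose by 0.84 ± 0.19, Laptm5 by 0.70 ± 0.15 and the adaptor Tyrobp by 0.58 ± 0.11. The pan-macrophage marker Adgre1 (F4/80) was not called: it ranged from 14.9 to 29.7 CPM (median 23.2) in the control libraries and from 24.0 to 41.7 CPM (median 26.5) in the high-fat libraries (log2 fold change 0.47 ± 0.18 SE, adjusted p = 0.0833). Adgre1 was called without wt_hfd_3 (log2 fold change 0.57, adjusted p = 0.0405 in edgeR) and without both muscle-rich libraries (0.63, adjusted p = 0.0378). The rises in the list numbered 6 without the epithelium-rich pair and 4 without the 5 libraries. With wt_hfd_3 or tgf_hfd_1 left out 1 gene fell. The list mean was highest in tgf_hfd_1 (5.43 log2 CPM).

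Genes of lipid-associated macrophages, which take up lipid from dying adipocytes, split in direction: 9 of 23 measured members rose and 3 fell (Trem2, Cd63 and Acp5). Itgax (chromosome 7, 128129526 to 128150657), which encodes the integrin CD11c of inflammatory adipose macrophages and dendritic cells, ranged from 1.14 to 2.76 CPM (median 1.97) in the control libraries and from 5.85 to 16.5 CPM (median 8.71) in the high-fat libraries. Its rise was 4.96-fold with no overlap (log2 fold change 2.31 ± 0.25 SE, adjusted p = 0.000389). The galectin Lgals3 rose by 1.30 ± 0.28. The macrophage elastase Mmp12 had a 5.46-fold higher fitted level (log2 fold change 2.45 ± 0.55 SE, adjusted p = 0.0103), with wt_hfd_1 the highest library at 104 CPM. Without that library the log2 fold change was 1.72 and the adjusted p was 0.0578. Trem2, the lipid receptor that marks these cells, ranged from 16.1 to 63.1 CPM (median 36.6) in the control libraries and from 12.7 to 31.8 CPM (median 16.5) in the high-fat libraries, and was lower on the high-fat diet (log2 fold change -1.01 ± 0.29 SE, adjusted p = 0.0322). The fall in Trem2 was not called without tgf_ctl_1, tgf_ctl_2, tgf_ctl_3, tgf_hfd_1, tgf_hfd_2, tgf_hfd_3, wt_ctl_2, wt_ctl_3, wt_hfd_2 or wt_hfd_3, with log2 fold changes of -1.04 to -0.84 and adjusted p of 0.0509 to 0.0863. Itgax and Ctss stand in other lists too. The 9 rises became 5 without wt_hfd_1, 6 without the epithelium-rich pair and 8 without the 5 libraries. The 3 falls became 0 without wt_ctl_3, tgf_ctl_1, tgf_ctl_3, wt_hfd_2, tgf_hfd_2 or tgf_hfd_3 and 1 without wt_ctl_2, wt_hfd_1, wt_hfd_3 or tgf_hfd_1, and 0 without the 5 libraries. Those falls numbered at most 2 in any fit that left out 1 library.

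Dendritic cell genes rose in 6 of 16 and fell in 1 (Irf4). Irf8, a transcription factor that classical dendritic cells of the cDC1 line need, ranged from 8.27 to 16.4 CPM (median 14.5) in the control libraries and from 23.1 to 36.1 CPM (median 30.3) in the high-fat libraries, and rose 2.35-fold (log2 fold change 1.23 ± 0.14 SE, adjusted p = 0.000418). Flt3, the receptor for the cytokine that dendritic cell precursors depend on, rose 3.14-fold, though from at most 0.813 CPM. Clec9a, a cDC1 receptor, rose by 0.78 ± 0.15 and the cytoskeletal gene Fscn1 by 0.88 ± 0.12. In these 4 genes and in Itgax the diets did not overlap. In place of 6 rises, 5 were called without the epithelium-rich pair and 3 without the 5 libraries. With tgf_ctl_3 left out 2 of the 16 fell.

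T and NK cell genes were low throughout, and 5 of 18 rose: Cd8a, Cd3d, Cd3e, Cd4 and Il7r. Il7r, the interleukin 7 receptor, ranged from 0.838 to 2.78 CPM (median 1.21) in the control libraries and from 2.33 to 10.4 CPM (median 3.29) in the high-fat libraries (log2 fold change 1.49 ± 0.37 SE, adjusted p = 0.0164), and was not called without wt_hfd_1. Cd8a rose 5.25-fold but from a control median of 0.0959 CPM. The count depended on single libraries, being 1 without wt_hfd_1, 2 without tgf_ctl_1, tgf_ctl_2, tgf_hfd_2 or tgf_hfd_3 and 3 without wt_ctl_1, wt_ctl_3, tgf_ctl_3 or wt_hfd_2. It was 1 without the epithelium-rich pair and 1 without the 5 libraries. None of 10 measured B cell genes was called. Their median log2 fold change was -1.05 in wild type and 0.88 in transgenic mice, a difference that was not tested. Mast cell genes fell in 2 of the 9 measured granulocyte and mast cell genes, the proteases Mcpt4 (-0.98 ± 0.26) and Cpa3 (-0.93 ± 0.30), and S100a8 rose (1.40 ± 0.39). None of these 3 calls held in every fit that left out 1 library: the 2 falls became 0 without tgf_ctl_1 and 1 without wt_ctl_1, wt_ctl_3, tgf_ctl_2, tgf_ctl_3, wt_hfd_1, tgf_hfd_1, tgf_hfd_2 or tgf_hfd_3, and S100a8 was not called without tgf_ctl_1, tgf_ctl_3, tgf_hfd_3, wt_ctl_2, wt_ctl_3 or wt_hfd_2.

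Of 30 measured mitosis genes 22 were called higher and none lower, and all 30 had a positive log2 fold change, with a median of 1.17. Mki67 (chromosome 7, 135689784 to 135716450), which encodes the proliferation antigen Ki-67, ranged from 2.81 to 6.20 CPM (median 4.65) in the control libraries and from 11.1 to 20.1 CPM (median 12.6) in the high-fat libraries. It was 3.11-fold higher (log2 fold change 1.64 ± 0.21 SE, adjusted p = 0.000662) with no overlap. Topoisomerase Top2a rose 3.28-fold and the spindle gene Tpx2 3.05-fold, both without overlap. The checkpoint kinase Bub1 rose 5.13-fold and the kinetochore gene Ndc80 2.98-fold, from control levels of at most 0.496 and 0.523 CPM. In 15 of the 30 genes the high-fat libraries lay wholly above the control libraries, against 3.98% of all genes tested. Leaving out 1 library gave 18 to 24 rises. Without the 5 libraries rich in other tissues 2 were called, in a fit that raised 369 of 17377 genes tested, while the median was 1.08.

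DNA replication genes rose in 19 of 31 and fell in none, with a median of 0.50. Mcm6, a subunit of the replicative helicase, ranged from 2.59 to 4.07 CPM (median 3.33) in the control libraries and from 6.43 to 12.8 CPM (median 9.53) in the high-fat libraries, and rose 2.75-fold (log2 fold change 1.46 ± 0.19 SE, adjusted p = 0.00075). Pclaf, a PCNA-binding protein, and Mcm10, which activates the helicase, rose 4.12-fold and 4.98-fold from control medians of 0.531 and 0.274 CPM. Uhrf1, which keeps DNA methylation through replication, rose by 1.41 ± 0.17, and the polymerase subunit Pole by 0.93 ± 0.12. None of these 5 genes overlapped between the diets. Without the 5 libraries 5 of the 31 were called and the median was 0.54.

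Because mitosis genes moved together, their promoters were read for the 2 sequence elements that many cell cycle promoters carry, the cell cycle genes homology region (TTTGAA) and the CCAAT box (CCAAT), each on both strands. Only the 250 bases before the RefSeq start were searched. TTTGAA lay there in 9 of the 25 mitosis genes with an entry (36.0%) and in 11.1% of the 12127 tested genes with one. CCAAT lay in 19 of the 25 (76.0%) and in 35.8% of the 12127. Among the 18 of them that were called, TTTGAA lay in 8 (44.4%) and CCAAT in 14 (77.8%). For the 25 DNA replication genes with an entry the shares were 12% and 60.0%. A match is a description of these letters and not a binding site. Below are the 250 bases upstream of the start (RefSeq, GRCm38.p6) for the 2 mitosis genes with the smallest p, 5′ to 3′ on the gene's strand, with both elements in capitals (ATTGG is CCAAT on the other strand).
Mki67 (chr7:135716380-135716629, minus strand): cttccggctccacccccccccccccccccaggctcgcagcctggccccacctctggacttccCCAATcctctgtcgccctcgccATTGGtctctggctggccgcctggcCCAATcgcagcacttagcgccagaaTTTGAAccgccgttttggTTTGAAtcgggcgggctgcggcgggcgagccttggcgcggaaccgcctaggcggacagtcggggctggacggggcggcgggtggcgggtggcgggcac
Ndc80 (chr17:71526858-71527107, minus strand): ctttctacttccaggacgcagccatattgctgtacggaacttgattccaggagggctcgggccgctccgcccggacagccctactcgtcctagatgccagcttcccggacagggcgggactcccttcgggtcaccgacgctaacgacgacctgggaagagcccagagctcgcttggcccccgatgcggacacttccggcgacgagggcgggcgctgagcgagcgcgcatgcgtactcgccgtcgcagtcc
The Mki67 window held 2 TTTGAA and 3 CCAAT matches, and the Ndc80 window held neither. Part of the Mki67 window lies inside the gene's annotated span, because the start used is downstream of its 5′ end.

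Collagen genes rose in 14 of 28 and fell in 4, with a median of 0.42. Col6a2 and Col6a1 are chains of type VI collagen, which forms microfibrils around adipocytes. Col6a2 (chromosome 10, 76595756 to 76623630) ranged from 329 to 561 CPM (median 476) in the control libraries and from 1077 to 1954 CPM (median 1358) in the high-fat libraries. The rise was 3.09-fold (log2 fold change 1.63 ± 0.16 SE, adjusted p = 0.000314) and there was no overlap. Its partner Col6a1 rose 2.35-fold, from a median of 510.5 to 1121 CPM, also without overlap. The fibrillar chains Col5a3 and Col5a1 rose by 1.40 ± 0.21 and 0.72 ± 0.12, the basement membrane collagen Col15a1 by 1.06 ± 0.14, and Col1a1, the main fibrillar collagen, by 0.60 ± 0.11. The third chain of the microfibril, Col6a3, rose less (log2 fold change 0.66 ± 0.21 SE, adjusted p = 0.0444) and was not called without tgf_ctl_1, tgf_ctl_2, tgf_hfd_2, tgf_hfd_3, wt_ctl_1, wt_ctl_2, wt_ctl_3 or wt_hfd_2 (log2 fold change 0.48 to 0.70). The 4 that fell were Col4a5, Col4a6, Col6a5 and Col8a2, and they numbered 2 without tgf_ctl_1, tgf_ctl_2 or tgf_hfd_3. Without the 2 epithelium-rich libraries 11 collagens were raised and 1 was lowered. Without all 5 libraries 6 were raised and none was lowered.

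Other matrix genes rose in 8 of 29 and fell in 4. Sparc, a collagen-binding matrix protein, ranged from 1795 to 3259 CPM (median 2744) in the control libraries and from 4421 to 6316 CPM (median 5252) in the high-fat libraries, and rose 2.02-fold (log2 fold change 1.02 ± 0.15 SE, adjusted p = 0.00107). The basement membrane proteoglycan Hspg2 rose 1.99-fold, also without overlap, and Mfap4 and Tnc rose by 1.05 ± 0.24 and 1.21 ± 0.27. Decorin (Dcn), a small proteoglycan that binds collagen fibrils, fell (log2 fold change -0.65 ± 0.12 SE, adjusted p = 0.00445). The falls numbered 2 without wt_ctl_1, tgf_ctl_1, wt_hfd_2 or tgf_hfd_1. Rises in this list were 7 without the epithelium-rich pair and 2 without the 5 libraries, and falls 3 without the epithelium-rich pair and 0 without the 5 libraries. Collagen-processing enzymes rose in 5 of 17, among them the collagen chaperone Serpinh1 (0.50 ± 0.10) and the lysyl hydroxylase Plod1 (0.32 ± 0.08). That count was 3 without wt_ctl_1, wt_ctl_2, tgf_ctl_1, tgf_ctl_2, wt_hfd_2, tgf_hfd_1, tgf_hfd_2 or tgf_hfd_3, and 2 without the epithelium-rich pair and 0 without the 5 libraries.

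Matrix proteases and their inhibitors moved both ways, 4 of 21 up and 3 down. Timp1, an inhibitor of metalloproteinases, ranged from 3.35 to 7.91 CPM (median 4.14) in the control libraries and from 5.58 to 33.8 CPM (median 14.6) in the high-fat libraries (log2 fold change 1.67 ± 0.36 SE, adjusted p = 0.00789). Adamts5, an aggrecanase, rose by 1.07 ± 0.19. Mmp9, a gelatinase, fell from a median of 16.6 to 5.21 CPM with no overlap (log2 fold change -1.52 ± 0.19 SE, adjusted p = 0.000615). The inhibitors Timp4 and Timp2 fell by 1.62 and 0.49 on the log2 scale. With the 5 libraries left out 1 rose and 1 fell. The metalloproteinase inhibitors of this list therefore did not move as a block.

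**Figure D4:**
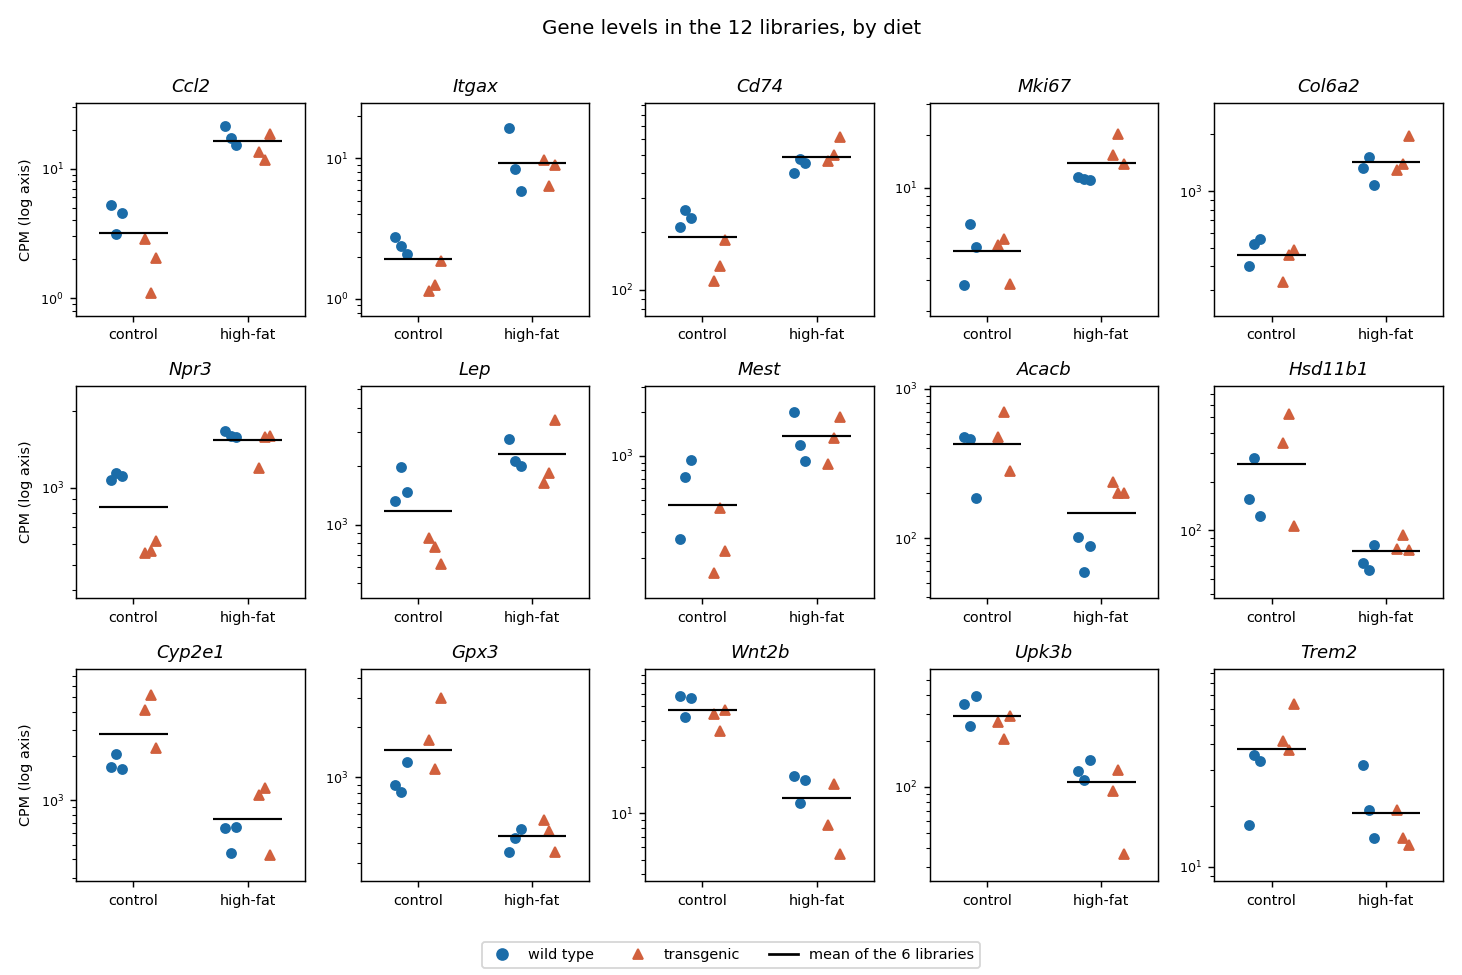
CPM (log axis) of 15 genes in each of the 12 libraries, by diet; circles are wild type, triangles transgenic, and the line is the mean of 6. Ccl2, Itgax, Cd74, Mki67, Col6a2 and Npr3 on the high-fat diet lie above every control library, Hsd11b1, Cyp2e1, Gpx3, Wnt2b and Upk3b lie below every control library, and Lep, Mest, Acacb and Trem2 overlap.

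Adipocyte genes tied to fat mass rose in 12 of 20, and 1 fell. Leptin (Lep, chromosome 6, 29060221 to 29073876), the satiety hormone that adipocytes release in proportion to their stores, ranged from 623 to 1991 CPM (median 1084) in the control libraries and from 1644 to 3475 CPM (median 2065) in the high-fat libraries. It was 2.12-fold higher (log2 fold change 1.08 ± 0.24 SE, adjusted p = 0.0105), with overlap between the diets, and was not called without the 2 epithelium-rich libraries (adjusted p = 0.0506) or without all 5 (adjusted p = 0.102). Mest, an imprinted gene whose level follows fat mass expansion, rose 3.25-fold from 356 to 1257 CPM in the median; 23.1% of its exon bases lie opposite exons of another gene, and the strand setting of the counting is not given. Sfrp5, a secreted Wnt antagonist of adipocytes, rose by 1.58 ± 0.32. Npr3, the clearance receptor for natriuretic peptides, ranged from 554 to 1140.0 CPM (median 844) in the control libraries and from 1197 to 1666 CPM (median 1586) in the high-fat libraries and did not overlap (log2 fold change 0.93 ± 0.14 SE, adjusted p = 0.00136). Fgf13 and the peptide hormone apelin (Apln) rose 2.87-fold and 2.83-fold, and the caveolar coat gene Cavin1 1.48-fold, all without overlap. Igf1, the growth factor, was the 1 that fell, from a median of 394 to 187 CPM (log2 fold change -1.04 ± 0.13 SE, adjusted p = 0.000579). Without the epithelium-rich pair 7 of the list rose and without all 5 libraries 4.

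Adipocyte identity genes barely moved: 1 of 20 rose (Lpl) and 2 fell (Cfd and Ebf2), near the background shares, and the list median was -0.11. Adiponectin (Adipoq) ranged from 4090.0 to 5466 CPM (median 4997) in the control libraries and from 3070.0 to 4419 CPM (median 4130.0) in the high-fat libraries and was not called (log2 fold change -0.30 ± 0.11 SE, adjusted p = 0.0889). Pparg, the master regulator of adipocytes, had a log2 fold change of -0.02 ± 0.10, Cebpa of -0.11 ± 0.10, Retn of -0.18 ± 0.14 and Adrb3 of -0.31 ± 0.17, none of them called. Cfd, which encodes the complement protease adipsin, fell to 0.478 of its control level (log2 fold change -1.06 ± 0.30 SE, adjusted p = 0.0283). The fall in Cfd was not called without tgf_ctl_1, tgf_hfd_2, tgf_hfd_3 or wt_hfd_1 (log2 fold change -1.05 to -0.90).

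In the lipogenesis list 8 of 20 were lowered and none raised, with a median of -0.81. Acacb and Acaca encode the acetyl-CoA carboxylases that commit carbon to fatty acid synthesis or, for Acacb, restrain fatty acid oxidation. Acacb (chromosome 5, 114146321 to 114250761) ranged from 185 to 698 CPM (median 466) in the control libraries and from 59.2 to 239 CPM (median 151) in the high-fat libraries, and was 0.314 of its control level (log2 fold change -1.67 ± 0.29 SE, adjusted p = 0.00291). Acaca was 0.350 of it (log2 fold change -1.52 ± 0.32 SE, adjusted p = 0.00724). Aacs, a cytosolic ligase that feeds ketone bodies into lipid synthesis, fell without overlap from a median of 369 to 119.5 CPM (log2 fold change -1.38 ± 0.20 SE, adjusted p = 0.00109). The desaturases Fads1 and Fads2 fell by 0.87 and 0.57 on the log2 scale. Fatty acid synthase (Fasn) spread widely, from 2088 to 19400.0 CPM (median 8470.0) in the control libraries and from 2586 to 9230.0 CPM (median 4270.0) in the high-fat libraries, and was not called (log2 fold change -1.10 ± 0.44 SE, adjusted p = 0.104). Scd1, the main stearoyl-CoA desaturase, had a log2 fold change of 0.06 ± 0.24. The control library wt_ctl_3 was the lowest of the 6, with a list mean of 7.53 log2 CPM against 9.30 in the highest, and without it 14 of the 20 were called lower. Fasn was also called lower without wt_ctl_3 (log2 fold change -1.27, adjusted p = 0.0298 in edgeR). Without the epithelium-rich pair 5 fell, and without all 5 libraries 2, with a median of -0.59.

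The promoters of the 2 lipogenesis genes with the smallest p and an entry were read in the same way for the sterol regulatory element (TCACNCCAC) and the E-box that ChREBP and related factors use (CACGTG), both strands. Neither occurs in the 250 bases upstream of the start of Aacs or Acacb, which are shown for that reason. Capitals would mark only these 2 elements. The Acacb window holds 1 TTTGAA and 1 CCAAT match, left in lower case here, and the Aacs window holds neither.
Aacs (chr5:125475623-125475872, plus strand): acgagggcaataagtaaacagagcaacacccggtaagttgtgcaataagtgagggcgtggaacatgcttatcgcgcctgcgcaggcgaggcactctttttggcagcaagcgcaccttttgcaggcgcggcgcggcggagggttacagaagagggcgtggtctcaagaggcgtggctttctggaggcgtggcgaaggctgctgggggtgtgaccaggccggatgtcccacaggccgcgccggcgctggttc
Acacb (chr5:114165268-114165517, plus strand): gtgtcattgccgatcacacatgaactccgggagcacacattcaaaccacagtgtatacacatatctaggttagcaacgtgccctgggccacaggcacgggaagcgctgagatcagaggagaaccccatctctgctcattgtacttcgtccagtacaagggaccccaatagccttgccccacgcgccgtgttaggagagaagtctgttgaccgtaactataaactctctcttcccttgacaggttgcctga
Only the 250 bases before the start were counted here too. Over the 16 lipogenesis genes with an entry, the sterol element lay in 1 (6.25%) and the E-box in 4 (25.0%). The shares over the 12127 tested genes were 1.03% and 8.12%. Among the 7 of the 16 lipogenesis genes called lower, the sterol element lay in 0 and the E-box in 1 (14.3%). The Acacb window lies inside the gene's annotated span, at a start downstream of its 5′ end.

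Genes that handle stored fat moved in both directions. Of 20 lipolysis genes 5 fell and 2 rose. Pnpla2, the adipose triglyceride lipase, ranged from 3020.0 to 4707 CPM (median 3713) in the control libraries and from 2158 to 3359 CPM (median 2603) in the high-fat libraries (log2 fold change -0.52 ± 0.10 SE, adjusted p = 0.00365). Its inhibitor G0s2 and its coactivator Abhd5 fell too, by 0.72 and 0.51 on the log2 scale. Mgll, which cleaves the last fatty acid from monoglyceride, rose by 0.48 ± 0.10 without overlap. Hormone-sensitive lipase (Lipe) had a log2 fold change of 0.02 ± 0.10. The falls numbered 3 without tgf_ctl_2 or wt_hfd_1, and 2 without the epithelium-rich pair. The rises numbered 1 without wt_ctl_2, tgf_ctl_1, tgf_ctl_3, wt_hfd_1, wt_hfd_2, wt_hfd_3, tgf_hfd_1 or tgf_hfd_3.

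Fatty acid uptake genes rose in 4 of 16 and fell in 1. Lipoprotein lipase (Lpl), which frees fatty acids from circulating triglyceride, ranged from 7692 to 9886 CPM (median 8909) in the control libraries and from 11890.0 to 15730.0 CPM (median 13610.0) in the high-fat libraries, and rose 1.53-fold with no overlap (log2 fold change 0.61 ± 0.11 SE, adjusted p = 0.00367). Gpihbp1, which anchors the lipase on capillaries, rose by 0.44 ± 0.10 and the lipoprotein receptor Vldlr by 0.65 ± 0.10. The transporter Slc27a4 fell by 0.37, and the falls numbered 2 without wt_ctl_2 and 3 without tgf_hfd_1. For triglyceride synthesis 1 of 17 rose, the glycerol channel Aqp7 (0.50 ± 0.10), and 2 fell, the acyltransferases Mogat1 (log2 fold change -1.08 ± 0.17 SE, adjusted p = 0.00187) and Gpam (-0.43 ± 0.12), of which Gpam was not called without tgf_ctl_1, tgf_ctl_2, tgf_ctl_3, tgf_hfd_1, tgf_hfd_3, wt_ctl_2, wt_hfd_1 or wt_hfd_3. The falls in triglyceride synthesis became 1 without wt_ctl_2, tgf_ctl_1, tgf_ctl_2, tgf_ctl_3, wt_hfd_1, wt_hfd_3, tgf_hfd_1 or tgf_hfd_3. The rises in triglyceride synthesis numbered 2 without wt_ctl_1. None of 11 lipid droplet coat genes was called. Fatty acid oxidation had 1 of 21 raised, Cpt1a, which admits fatty acids to mitochondria (log2 fold change 0.49 ± 0.12 SE, adjusted p = 0.0135). The falls in that list, 0 with all 12 libraries, numbered 3 without tgf_hfd_1. Of 15 thermogenic genes none was called with all 12 libraries, and the rises numbered 1 without wt_ctl_3, wt_hfd_1 or wt_hfd_2. Ucp1 ranged from 0.0925 to 92.5 CPM (median 27.9) in the control libraries and from 0.0879 to 228 CPM (median 29.1) in the high-fat libraries, and its log2 fold change was 0.05 ± 1.29.

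Among 45 nuclear respiratory chain genes 11 fell and none rose, 2 had a positive log2 fold change and the median was -0.32. Uqcrh, of complex III, ranged from 100.1 to 158 CPM (median 125) in the control libraries and from 74.8 to 112 CPM (median 81.8) in the high-fat libraries (log2 fold change -0.57 ± 0.12 SE, adjusted p = 0.0076). The cytochrome oxidase gene Cox8a fell by 0.50 and the ATP synthase gene Atp5j by 0.41. The number called depended strongly on single libraries: it was 3 without tgf_ctl_1 or tgf_hfd_3, 4 without tgf_hfd_2, 5 without wt_ctl_2, wt_hfd_1 or wt_hfd_2, 6 without wt_ctl_1, 7 without tgf_ctl_2, 21 without tgf_ctl_3 and 32 without tgf_hfd_1. It was 4 without the epithelium-rich pair and 2 without the 5 libraries, but 20 without the 2 muscle-rich libraries. The median was negative in each fit that left out 1 library, from -0.41 to -0.26.

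Citrate cycle and pyruvate genes fell in 5 of 23 and rose in none, among them the kinase Pdk2 (log2 fold change -0.62 ± 0.13 SE, adjusted p = 0.00667) and the malate dehydrogenase Mdh1 (-0.42 ± 0.11). That count was 3 without wt_ctl_1, wt_ctl_2, tgf_ctl_1, tgf_ctl_2, wt_hfd_1, wt_hfd_2, tgf_hfd_2 or tgf_hfd_3, and 1 without the epithelium-rich pair and 0 without the 5 libraries. Branched-chain amino acid genes fell in 6 of 23, with Acadsb at -0.41 ± 0.09 and Aldh6a1 at -0.38 ± 0.10, and the count was 2 without wt_ctl_2, tgf_ctl_1, tgf_ctl_2, wt_hfd_1, wt_hfd_2, tgf_hfd_2 or tgf_hfd_3 and 3 without wt_ctl_1. For this list it was 1 without the epithelium-rich pair and 0 without the 5 libraries. Pentose phosphate and NADPH genes fell in 3 of 10 by at most 0.33 on the log2 scale, and that count was 0 without wt_ctl_2, wt_hfd_1, wt_hfd_3 or tgf_hfd_2 and 1 without tgf_ctl_1, tgf_ctl_2, tgf_ctl_3, wt_hfd_2, tgf_hfd_1 or tgf_hfd_3, 1 without the epithelium-rich pair and 0 without the 5 libraries. In glycolysis, Slc16a1, a lactate and ketone body transporter, fell without overlap from 148 to 91.0 CPM in the median (log2 fold change -0.72 ± 0.08 SE, adjusted p = 0.000395), and Tpi1 rose by 0.57 ± 0.11. Gpi1 was the other glycolysis gene called lower, and the falls numbered 1 without wt_ctl_1, wt_ctl_2, tgf_ctl_2, tgf_ctl_3, wt_hfd_1, wt_hfd_2, wt_hfd_3 or tgf_hfd_2. None of 22 cholesterol synthesis genes was called, but the rises numbered 1 without tgf_ctl_2 or wt_hfd_3 and the falls 1 without tgf_ctl_3 or tgf_hfd_3.

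Of 13 mitochondrially encoded genes 1 was called, COX3, which fell (log2 fold change -1.10 ± 0.30 SE, adjusted p = 0.0251) and was not called without tgf_ctl_2, tgf_hfd_3, wt_hfd_1 or wt_hfd_2. The number called lower was 0 without tgf_ctl_2, wt_hfd_1, wt_hfd_2 or tgf_hfd_3, 2 without tgf_hfd_1 and 5 without tgf_ctl_3, and 6 without the 2 muscle-rich libraries. These 13 genes and the mitochondrial ribosomal RNAs mt-Rnr1 and mt-Rnr2 together made up 8.22% ± 2.44 (SD, n = 6) of the gene counts on the control diet and 6.73% ± 1.40 (SD, n = 6) on the high-fat diet. The control libraries ran from 5.76% to 12.2% and the high-fat libraries from 4.70% to 8.96%. The difference of -1.49 percentage points was within the spread between libraries (2-sided exact permutation test within genotype, p = 0.22, with 0.005 the smallest p the 400 arrangements allow).

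Steroid hormone genes fell in 4 of 10 and rose in none. Hsd11b1 (chromosome 1, 193221640 to 193264045), which regenerates active glucocorticoid inside adipocytes, ranged from 107 to 523 CPM (median 218) in the control libraries and from 56.7 to 93.7 CPM (median 75.8) in the high-fat libraries. It was 0.300 of its control level, without overlap (log2 fold change -1.74 ± 0.32 SE, adjusted p = 0.00367). The falls in this list were 3 without the epithelium-rich pair and 2 without the 5 libraries. Fkbp5, a glucocorticoid-induced chaperone, fell by 0.78 on the log2 scale and was not called without tgf_ctl_2. The progesterone receptor Pgr fell by 1.86, but was not called without tgf_hfd_2 or tgf_hfd_3.

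In the growth hormone and STAT5 list 3 of 12 fell (Cish, Igf1 and Prlr) and 1 rose (Jak2). Neither Jak2 nor Prlr was called in every fit: Prlr was lost without tgf_ctl_1, tgf_ctl_2, tgf_hfd_1, tgf_hfd_2, tgf_hfd_3, wt_ctl_1 or wt_hfd_2, and the rises numbered 0 without wt_ctl_1, wt_ctl_3, tgf_ctl_1, tgf_ctl_2, wt_hfd_1, wt_hfd_2, wt_hfd_3 or tgf_hfd_2. Cish, a feedback inhibitor that STAT5 induces, ranged from 8.43 to 43.8 CPM (median 14.2) in the control libraries and from 3.74 to 7.19 CPM (median 3.89) in the high-fat libraries, and was 0.252 of its control level without overlap (log2 fold change -1.99 ± 0.37 SE, adjusted p = 0.00388). Of 23 insulin signalling genes 2 fell (8.7%, near the 8.05% over all genes tested) and none rose, though 1 rose without wt_ctl_1 or tgf_hfd_2. Pik3r1, the regulatory subunit of the kinase PI3K, ranged from 134 to 246 CPM (median 218) in the control libraries and from 89.9 to 115 CPM (median 100.1) in the high-fat libraries with no overlap (log2 fold change -1.01 ± 0.13 SE, adjusted p = 0.000606). The insulin-responsive glucose transporter Slc2a4 was not called (log2 fold change -0.37 ± 0.18 SE, adjusted p = 0.184). Of 9 renin-angiotensin genes 1 was called: Agt, which encodes angiotensinogen, was 0.368 of its control level, from a median of 332 to 119 CPM, with no overlap (log2 fold change -1.44 ± 0.24 SE, adjusted p = 0.00251). The falls in this list numbered 2 without wt_ctl_3, tgf_ctl_1, tgf_ctl_3 or tgf_hfd_3.

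Of 33 measured genes of the TGF-b and activin list 2 rose and 5 fell, beside 9.38% raised and 8.05% lowered over all genes tested, and the median was 0.04. The falls were 4 without the epithelium-rich pair and 0 without the 5 libraries. Tgfb1 rose 1.40-fold, from 45.7 to 61.9 CPM in control and to 63.7 to 82.3 CPM in high-fat libraries (log2 fold change 0.49 ± 0.06 SE, adjusted p = 0.000549). The rise was 0.52 on the log2 scale in wild type, which lacks the transgene, and 0.46 in transgenic mice. Inhbb, an activin subunit of adipocytes, rose by 0.60 ± 0.13, while Tgfb2 fell by 0.58, the coreceptor Tgfbr3 by 0.38 and Bmp2 by 0.65. In the Wnt list 2 of 27 rose and 4 fell (1 without the 5 libraries). Wnt2b (chromosome 3, 104944805 to 104961709), a secreted ligand, ranged from 34.3 to 58.3 CPM (median 45.6) in the control libraries and from 5.43 to 17.6 CPM (median 13.6) in the high-fat libraries, and was 0.262 of its control level (log2 fold change -1.93 ± 0.21 SE, adjusted p = 0.000389). The Wnt amplifier Rspo1 fell by 1.03. For both the diets did not overlap. Rises in the Wnt list numbered 1 without wt_ctl_1, wt_ctl_2, tgf_ctl_1, tgf_ctl_2, wt_hfd_2, wt_hfd_3, tgf_hfd_2 or tgf_hfd_3.

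Complement genes rose in 4 of 17 and fell in 3. Cfb, factor B of the alternative pathway, rose 2.12-fold (log2 fold change 1.08 ± 0.11 SE, adjusted p = 0.000389) and C2, its classical pathway counterpart, fell (-0.79 ± 0.18). The 2 genes are neighbours whose RefSeq spans do not overlap. Of their exon bases, 79.5% for Cfb and 42.8% for C2 lie in exons annotated to another gene on the same strand. Reads of either gene may have been assigned elsewhere or left out, so the levels of both are less certain. Rises became 2 without tgf_ctl_1, tgf_ctl_2, wt_hfd_2, tgf_hfd_1 or tgf_hfd_2 and falls 1 without tgf_ctl_1, wt_hfd_1, tgf_hfd_2 or tgf_hfd_3. Of 21 eicosanoid genes 2 rose and 4 fell. Alox15, a lipoxygenase of resident macrophages and eosinophils, ranged from 4.86 to 21.3 CPM (median 7.17) in the control libraries and from 1.23 to 2.49 CPM (median 2.39) in the high-fat libraries, and was 0.244 of its control level without overlap (log2 fold change -2.03 ± 0.33 SE, adjusted p = 0.00194). Alox5ap, which presents arachidonate for leukotriene synthesis, rose by 0.55 ± 0.12.

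Genes of the oxidative stress list went both ways, 5 of 21 up and 6 down. Gpx3, the secreted glutathione peroxidase, ranged from 807 to 3026 CPM (median 1171) in the control libraries and from 351 to 552 CPM (median 449.5) in the high-fat libraries, and was 0.319 of its control level with no overlap (log2 fold change -1.65 ± 0.25 SE, adjusted p = 0.00136). Gsta3, a glutathione transferase, fell by 1.07 and Sod1 by 0.42. In the other direction, the cystine importer Slc7a11 rose 3.21-fold and the extracellular superoxide dismutase Sod3 1.65-fold, both without overlap. The rises numbered 2 without tgf_ctl_1 and 3 without wt_ctl_3, tgf_ctl_2, tgf_ctl_3, wt_hfd_2, tgf_hfd_1 or tgf_hfd_3. Of 24 unfolded protein and integrated stress genes 3 rose and 2 fell, beside 9.38% raised and 8.05% lowered over all genes tested. The falls were Xbp1, a driver of the unfolded protein response, by 0.63, and the amino acid response gene Asns, by 0.56. Edem1, which draws misfolded proteins to degradation, rose by 0.39 ± 0.07, and the rises in that list numbered 1 without wt_hfd_1. Carbonic anhydrases fell in 4 of 11 and rose in none, with the mitochondrial form Car5b at 0.546 and Car13 at 0.714 of the control level. Carbonic anhydrase rises numbered 1 without tgf_ctl_3 or wt_hfd_1 and 2 without wt_ctl_2.

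Mesothelial genes were lower on the high-fat diet in 10 of 15, with none higher and a median of -1.11. Upk3b (chromosome 5, 136038496 to 136044993), a membrane protein of the serosal surface, ranged from 206 to 394 CPM (median 277) in the control libraries and from 36.5 to 149.8 CPM (median 119) in the high-fat libraries, and was 0.366 of its control level (log2 fold change -1.45 ± 0.24 SE, adjusted p = 0.00212). Muc16, a surface mucin, was 0.420 of it and the transcription factor Wt1 0.525 of it. The list mean was lowest in tgf_hfd_3 (3.37 log2 CPM). Il33, Wnt2b and Rspo1, given under other groups, are also made by mesothelium, and whether their falls follow the mesothelial share was not tested. Without the epithelium-rich pair 8 fell, and without all 5 libraries none was called, with a median of -1.0.

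Adipose progenitor genes fell in 5 of 17 and rose in 2. Dpp4, of early interstitial progenitors, fell by 0.57 and Ebf2 by 0.38. The preadipocyte regulator Zfp423 rose without overlap (log2 fold change 0.55 ± 0.12 SE, adjusted p = 0.00872), and the receptor Pdgfrb with overlap (0.52 ± 0.13). The falls numbered 2 without wt_hfd_2 and 3 without wt_ctl_1, wt_ctl_3, tgf_ctl_1, tgf_ctl_3, wt_hfd_1, tgf_hfd_1 or tgf_hfd_3, and 4 without the epithelium-rich pair and 0 without the 5 libraries. Endothelial genes rose in 5 of 22 and fell in 1 (Vegfb, not called without wt_ctl_2). The apelin receptor Aplnr rose by 0.86 ± 0.18, and the tight junction gene Cldn5 and the receptor Robo4 by 0.67 ± 0.12 and 0.54 ± 0.12. Those rises numbered 3 without wt_ctl_1, wt_ctl_3, tgf_ctl_1, wt_hfd_1, wt_hfd_2, tgf_hfd_2 or tgf_hfd_3, and 0 without the 5 libraries. None of 14 smooth muscle and pericyte genes and none of 9 Schwann cell genes was called with all 12 libraries. Smooth muscle and pericyte rises numbered 2 without wt_ctl_2 and 3 without tgf_ctl_3 or tgf_hfd_1. Schwann cell rises numbered 1 without wt_ctl_3, wt_hfd_1 or wt_hfd_2, and falls 1 without wt_ctl_3.

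Genes of other tissues differed as follows. Red cell genes fell in 5 of 7, Hba-a1 from a median of 612 to 311 CPM (log2 fold change -0.94 ± 0.18 SE, adjusted p = 0.00449) and the band 3 gene Slc4a1 to 0.180 of its control level. The red cell count was 5 without the epithelium-rich pair and 2 without the 5 libraries. Epithelial genes fell in 3 of 6, and 1 did with the epithelium-rich pair left out. That count was 1 without tgf_ctl_2, tgf_hfd_1, tgf_hfd_2 or tgf_hfd_3. Liver genes rose in 5 of 9 and 3 rose without wt_hfd_2. They numbered 3 without the epithelium-rich pair and 1 without the 5 libraries. Serpina1a, an antitrypsin gene of a family of close paralogs, ranged from 0.347 to 2.30 CPM (median 0.813) in the control libraries and from 3.48 to 7.03 CPM (median 5.54) in the high-fat libraries with no overlap (log2 fold change 2.44 ± 0.39 SE, adjusted p = 0.00194). The liver gene that fell was Cyp2e1 (chromosome 7, 140763819 to 140774990), an alcohol- and ketone-metabolising cytochrome P450 that adipocytes also express. It ranged from 1643 to 5209 CPM (median 2175) in the control libraries and from 426 to 1218 CPM (median 656) in the high-fat libraries, and was 0.277 of its control level with no overlap (log2 fold change -1.85 ± 0.26 SE, adjusted p = 0.00102). None of 11 muscle genes was called, but the rises numbered 2 without tgf_ctl_3 and the falls 1 without wt_hfd_3.

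The genes with the largest fold changes, among called genes at 1 CPM or more in the higher diet whose libraries did not overlap, were mostly scarce. Cdkl4, a kinase of the CDKL family, was the most abundant of the 12 largest rises. It ranged from 1.79 to 9.81 CPM (median 5.97) in the control libraries and from 21.1 to 57.1 CPM (median 38.0) in the high-fat libraries, and rose 7.47-fold (log2 fold change 2.90 ± 0.32 SE, adjusted p = 0.000391). Tph2, the tryptophan hydroxylase best known from neurons, rose 10.5-fold, from at most 2.13 CPM in control to 3.11 to 28.1 CPM in high-fat libraries. Gas2l2, a cytoskeletal linker, rose 11-fold from a control median of 0.309 CPM (log2 fold change 3.46 ± 0.37 SE, adjusted p = 0.000389), and the X-linked Mageb18 6.92-fold (log2 fold change 2.79 ± 0.32 SE, adjusted p = 0.000418). The others were Art2a, Tm4sf19, Anks1b, Sirpb1a, Vsig8, Ahsg, Dsg1a and Rimbp2, with log2 fold changes of 2.46 to 4.0 and control medians of 0.0749 to 0.692 CPM. Art2a is listed by RefSeq as a transcribed pseudogene with a close paralog, and Sirpb1a has close paralogs, so both are uncertain.

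Wnt2b was the most abundant of the 12 largest falls, followed by Cish. The scarcer ones included Alox15 and Slc4a1, described above, and Fgfbp1, which carries fibroblast growth factors from the matrix and ranged from 3.34 to 14.3 CPM (median 5.61) in the control libraries and from 0.648 to 2.83 CPM (median 1.16) in the high-fat libraries (log2 fold change -2.30 ± 0.38 SE, adjusted p = 0.00226). Sstr4, a somatostatin receptor, was 0.252 of its control level (log2 fold change -1.99 ± 0.29 SE, adjusted p = 0.00124) and Isl1, a homeobox transcription factor, 0.239 of it. Tspan8, a tetraspanin of epithelia, had the largest fall (log2 fold change -2.51), and its highest control library, at 6.70 CPM, was one of the epithelium-rich pair. Faim2, Shisal1, Efcab1 and the uncharacterised LOC118568681 fell by 1.91 to 2.36 on the log2 scale from control medians of 2.01 to 4.52 CPM.

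The 2 genotypes contributed unequally in number of calls but not, among genes called in the pooled effect, in direction. The diet effect within each genotype, 3 libraries against 3, came from 1 model of the 4 group means over all 12 libraries. It was called for 188 genes in wild type (1.14% of those tested) and 1445 in transgenic mice (8.73%). All 2884 genes of the pooled effect had the same sign in both genotypes, a feature that the pooled selection favours. Among the 1552 raised genes 1163 had the larger rise in transgenic mice, and among the 1332 lowered genes 840 had the larger fall there. The difference itself, the genotype by diet interaction, was called for 0 of 16550 genes in edgeR (929 at an unadjusted p below 0.05), 27 in DESeq2 and 0 in limma-voom. A missing call does not show that the genotypes responded alike.

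Side by side, the log2 fold change of Ccl2 was 2.05 ± 0.29 in wild type and 2.85 ± 0.31 in transgenic mice (interaction adjusted p = 0.864). For Col6a2 it was 1.39 ± 0.21 in wild type and 1.86 ± 0.21 in transgenic mice (interaction adjusted p = 0.885). Both genes were higher on the high-fat diet in each genotype. The fat-related genes had larger estimates in transgenic mice, whose control libraries were lower: Lep averaged 1597 ± 351 CPM (SD, n = 3) in wild-type and 745 ± 114 in transgenic control libraries, and 2302 ± 416 and 2325 ± 1001 on the high-fat diet. The log2 fold change of Lep was 0.53 ± 0.27 in wild type and 1.64 ± 0.27 in transgenic mice (interaction adjusted p = 0.781). For Npr3 it was 0.54 ± 0.13 in wild type and 1.33 ± 0.13 in transgenic mice (interaction adjusted p = 0.618), and for Fgf13 0.92 ± 0.15 in wild type and 2.14 ± 0.15 in transgenic mice (interaction adjusted p = 0.557). Lipogenic genes leaned the other way, with Acacb at -2.17 ± 0.38 in wild type and -1.18 ± 0.36 in transgenic mice (interaction adjusted p = 0.864) and a list median of -1.19 in wild type and -0.34 in transgenic mice. The class II median was 0.72 in wild type and 1.45 in transgenic mice, and the mitosis median 0.84 and 1.54. The difference between genotypes was not tested for list medians.

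**Figure D5:**
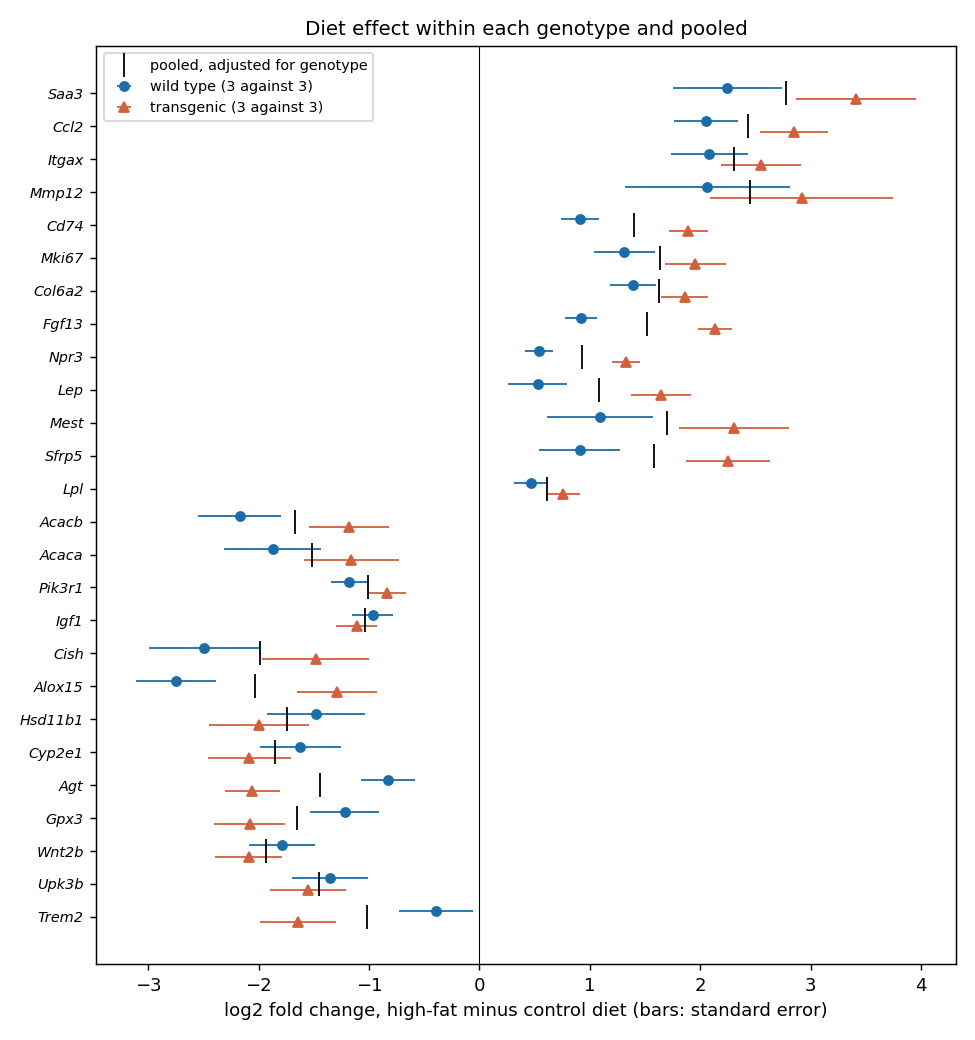
Log2 fold change of high-fat over control diet for 26 genes within wild type (circles) and within transgenic mice (triangles), 3 against 3 libraries each, with standard errors; the black bar is the pooled estimate. Both symbols lie on the same side of 0 for every gene shown, with Lep, Npr3, Fgf13 and Agt farther from 0 in transgenic and Acacb and Alox15 farther in wild-type mice.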

How the data were processed

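Visceral white adipose RNA of 12 libraries, 3 for each genotype and diet, was sequenced from total RNA on DNBseq libraries, per the labels. The authors deposited 1 table of raw counts per gene symbol for each library, made with HISAT2 2.2.0 and HTSeq 2.0 on mm10, per the submitters' processing notes, which also list DESeq2 1.32.0. The sources used here do not give the annotation counted against, nor the strand setting. The 5 closing summary entries of each table, 16.8% to 21.0% of all entries summed, name no gene and were left out of library sizes and tests.

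From these counts, genes were kept by filterByExpr over the 4 groups (minimum count 10, minimum total 15), libraries were scaled by TMM factors, and edgeR 4.0.16 (R 4.3.3) fitted genotype plus diet to all 12 libraries with a quasi-likelihood F test of the diet term on 9 residual degrees of freedom. Adjusted p are Benjamini-Hochberg values over the 16550 genes tested, with 0.05 as the threshold, and each SE is the size of the log2 fold change over the root of its F statistic. These steps were tested on simulated data. The interaction and within-genotype effects came from a model of the 4 group means. List levels are means of log2 CPM with a prior count of 2. DESeq2 1.42.0 and limma 3.58.1 served as alternatives.

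The 60 gene lists, and the comparison itself, were chosen with earlier results of these data known. Genes are named by rule: the 12 largest called rises and falls at 1 CPM or more whose 6 and 6 libraries do not overlap, up to 5 called members of each list by smallest p, and a panel of 25 genes. Members outside it that stand without values beside a count were named after their values were seen. List members are not independent, and no list was tested as a set. Of 50559 symbols, 48908 (96.7%) matched the RefSeq table (GRCm38.p6), the source of positions and promoters. A library of this depth has few reads for genes near 0.1 CPM, which limits their precision. Alternatives covered the tool, scaling, filter, model, a replicate block and left-out libraries. Some genes are not reported here.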

Additional observations from a re-analysis of the deposited data

Results flagged for a closer look

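In each diet, the mean level of each of 59 gene lists was examined for a library lying far from the other 5 (Dixon's test at the 95% level), and 10 of 118 tests did so, where about 1 in 20 would by chance. All values are mean log2 CPM of a list. In tgf_hfd_1, the highest high-fat library in each case, fatty acid oxidation genes stood at 8.04 (nearest other library 7.47), glycolysis genes at 6.92 (6.67) and macrophage genes at 5.43 (5.13). T and NK cell genes were lowest there, at -0.45 (0.41). In tgf_hfd_3, carbonic anhydrase genes stood at 3.98 (3.70) and renin-angiotensin genes at 3.50 (3.32), both above the other high-fat libraries.

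Among the control libraries, tgf_ctl_2 had the highest endocannabinoid genes at 4.94 (4.73) and liver genes at 1.64 (0.69). Schwann cell genes stood at 4.44 in wt_ctl_1 (2.56), and muscle genes at 5.53 in tgf_ctl_3 (-0.09). Both wt_ctl_1 and tgf_ctl_2 are the epithelium-rich libraries, and tgf_ctl_3 is one of the muscle-rich ones. The nuclear respiratory chain count, which was 11 with all 12 libraries, was 32 without tgf_hfd_1 and 3 without tgf_hfd_3. In tgf_hfd_1 the mean of that list was 7.65 (high-fat median 7.13) and that of the thermogenic list 3.67 (high-fat median 2.325). Both were the highest of the high-fat libraries, though neither was flagged, and a link to the count was not tested. No gene among the 253 examined had its diet effect in opposite directions in every library of the 2 genotypes.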

How the results depend on the processing

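All 2884 called genes kept their direction in every alternative in which they were measured. DESeq2 called 3574 genes, limma-voom 3030, library totals without TMM factors 2639 (1649 raised, 990 lowered), no further filter 2657 and the model without a genotype term 2630. A replicate block, which pairs the libraries of a genotype by replicate number, called 2466. The labels do not say whether the numbers pair the samples. Same-numbered libraries deviated from their group means with correlations of -0.074 to 0.153, and not every library correlated best with its own number. With 3 libraries per group, these correlations cannot decide it. Without the epithelium-rich libraries 1869 genes were called, 816 of them lowered. Without the 5 libraries rich in other tissues 550 were called, 369 raised and 181 lowered, in a fit of 7 libraries. Leaving out 1 library called 1978 to 2812 genes, 1127 to 1474 raised and 851 to 1338 lowered. Interaction calls, 0 in edgeR, were 27 in DESeq2, 53 without a further filter, 1 without the epithelium-rich libraries, 1 without the 5 libraries, and 0 to 8 on leaving out 1 library (8 without wt_ctl_3). The cause was not tested.

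Pparg, Lipe, Scd1 and Ucp1, whose log2 fold changes lay near 0 and were not called, changed sign under some alternatives. With 1 library left out, Pparg (-0.02 with all 12) ran from -0.0615 to 0.0797, Lipe (0.02) from -0.0199 to 0.0527, Scd1 (0.06) from -0.0815 to 0.219 and Ucp1 (0.05) from -0.87 to 0.87. Pparg was 0.0086 with library totals only, Lipe -0.0096 without the epithelium-rich libraries and Scd1 -0.0369 without the muscle-rich ones. Ucp1 was -1.83 without the muscle-rich libraries and -0.42 without all 5. Over the 253 named genes, 590 values under an alternative fell short of the threshold that the reported value passed, 33 passed it anew and 5654 stayed on their side. Genes below about 1 CPM rest on few reads.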

Other observations

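Some groups not described above moved in part. Annexin and S100 genes, which encode calcium-binding proteins of membranes and the cytoskeleton, rose in 5 of 17 and fell in 2. The 2 falls became 0 or 1 in each of the 12 fits that left out 1 library, and 0 without the 5 libraries rich in other tissues. Anxa2 rose 1.70-fold (log2 fold change 0.76 ± 0.11 SE, adjusted p = 0.00121 in edgeR) and Anxa5 1.40-fold, both with no overlap between the diets. Mthfd2, a mitochondrial folate enzyme that dividing cells use, averaged 3.05 CPM on the control and 5.76 CPM on the high-fat diet, a log2 change of 0.94 ± 0.20 SE. It belongs to a serine and one-carbon list of 12 genes, of which 3 rose and 1 fell. That fall was not called without wt_ctl_1, wt_ctl_2, tgf_ctl_1, wt_hfd_1, wt_hfd_3, tgf_hfd_1, tgf_hfd_2 or tgf_hfd_3, nor without the epithelium-rich pair or under the replicate block.

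Several well-measured genes outside every list also differed, and were chosen after their values were seen. Stard10, a lipid transfer protein, averaged 45.8 CPM on the control and 16.6 CPM on the high-fat diet (log2 fold change -1.47 ± 0.11 SE, adjusted p = 6.08e-05 in edgeR). Cd44, the hyaluronan receptor of activated leukocytes and progenitors, averaged 14.7 and 33.3 CPM (1.19 ± 0.11). Fmr1, an RNA-binding protein of translation control, averaged 312 and 642 CPM (1.08 ± 0.12), and Lrg1, a secreted glycoprotein, 238.5 and 656 CPM (1.44 ± 0.32). Trf, which encodes the iron carrier transferrin, averaged 1785 and 920.1 CPM (-0.94 ± 0.16). In each of these 5 the 6 high-fat libraries did not overlap the 6 control libraries, a state that 658 genes shared in the upward and 462 in the downward direction.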
